A study of Mus musculus with 6 samples.

Results

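The enzymes of the pentose phosphate pathway were followed in livers of male KK/H1J mice, an obese strain that develops diabetes through many genes. All mice were 12 to 14 weeks old, weighed about 35 g, were housed singly and ate freely. Liver RNA was taken 7 days after an adenovirus had been given by tail vein. In 3 mice (23, 28 and 36) the virus carried BPD, a bisphosphatase-deficient version of PFK-2/FBPase-2, the enzyme that makes and removes the glycolysis activator fructose 2,6-bisphosphate. In 3 control mice (22, 29 and 31) it carried green fluorescent protein (GFP), at the same stated dose. Both groups therefore carried an adenovirus, mice without virus were not analysed here, and the labels do not say which promoter drove the insert or which liver cells took it up. Each mouse had its own array of total liver RNA.

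The members were 7 genes, G6pdx, H6pd, Pgls and Pgd of the oxidative branch and Rpia, Tkt and Taldo1 of the non-oxidative branch, represented by every probe set that the platform annotation names with exactly 1 of these symbols. This gave 10 of 22626 probe sets, for 6 of the 7 genes. Of these, 6 belonged to the oxidative branch (4 of Pgd, 1 each of H6pd and Pgls) and 4 to the non-oxidative branch (2 of Tkt, 1 each of Rpia and Taldo1). No probe set was named here for G6pdx, the dehydrogenase that commits glucose 6-phosphate to the pathway in the cytosol, and its expression was not analysed here. All 10 probe sets passed the filter on dim signals.

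The pathway runs in the cytosol beside glycolysis. Its oxidative branch turns glucose 6-phosphate into ribulose 5-phosphate and yields NADPH, which liver uses for fatty acid and sterol synthesis and to keep glutathione reduced. The reversible non-oxidative branch makes ribose 5-phosphate for nucleotides and links pentose phosphates back to fructose 6-phosphate and glyceraldehyde 3-phosphate of glycolysis. H6pd carries out the first oxidative steps on its own inside the endoplasmic reticulum, where its NADPH serves the glucocorticoid-activating enzyme Hsd11b1.

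The 2 members whose change held under each of the 3 scalings between arrays used here were Rpia and H6pd, and Pgd was called under 2 of them. The RefSeq sequence of the 250 bases before the start site of these genes is therefore shown (GRCm38.p6, gene strand, 5′ to 3′), with CCAAT boxes on either strand in capitals. The start listed for H6pd is not the outermost start of its gene record, and of 2 starts listed for Pgd the outer one is shown.
Rpia, chr6:70792176-70792425, minus strand: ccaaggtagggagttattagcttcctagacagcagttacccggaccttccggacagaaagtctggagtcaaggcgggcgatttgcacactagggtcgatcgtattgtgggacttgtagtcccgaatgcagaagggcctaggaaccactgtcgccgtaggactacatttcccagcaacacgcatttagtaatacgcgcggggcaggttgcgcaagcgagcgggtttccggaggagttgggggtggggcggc
H6pd, chr4:150003237-150003486, minus strand: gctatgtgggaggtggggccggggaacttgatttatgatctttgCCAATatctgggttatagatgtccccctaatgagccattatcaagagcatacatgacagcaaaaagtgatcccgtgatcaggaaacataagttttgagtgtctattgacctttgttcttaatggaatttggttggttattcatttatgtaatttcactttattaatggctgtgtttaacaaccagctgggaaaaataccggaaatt
Pgd, chr4:149166706-149166955, minus strand: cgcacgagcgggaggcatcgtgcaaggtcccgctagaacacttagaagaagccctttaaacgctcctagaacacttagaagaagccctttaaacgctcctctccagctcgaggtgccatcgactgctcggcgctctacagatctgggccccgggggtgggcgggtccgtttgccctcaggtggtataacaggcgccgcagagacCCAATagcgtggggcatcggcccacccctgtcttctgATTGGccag

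Besides the CCAAT box, 3 motifs were searched on both strands, with no overlap between the matches found. These were TGACNNNGC (the core of the antioxidant response element), CACGTG (the E-box of the carbohydrate response element) and the sterol response element of the LDL receptor type. Pgd had 2 CCAAT boxes, starting 46 and 9 bases before its outer start site, and 0 matches before the other listed start, H6pd had 1 at 206 bases, and Rpia had no match in this window. Among all 32851 listed promoters 33.8% held CCAAT within the 250 bases, 10.2% TGACNNNGC, 6.02% CACGTG and 0.192% the sterol response element. Of the other members, Taldo1 held a CCAAT box 9 bases and G6pdx a TGACNNNGC match 57 bases before the start, while Pgls and Tkt had none of the 4 motifs.

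Median signal was 174 to 197 on the BPD arrays and 135 to 157 on the GFP arrays, although every array had the same trimmed mean of 499.9 as deposited. Values were analysed as log2 of signal plus a constant of 16.33, centred on each array's median, and tested with limma over all 13575 probe sets above the filter. After centring the median log2 difference (BPD minus GFP) of the 13575 probe sets above the filter was -0.21. It was 0.10 in the deposited scaling and -0.06 after quantile normalization. The centring used the median of all 22626 probe sets, so this difference need not vanish above the filter. Shares and medians given below for all probe sets or all genes refer to those above the filter. Small differences of either sign therefore moved with the scaling, and each member is given under all 3. The labels do not describe litters, cages or array batches, and the mouse numbers pair no animals.

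Of the 10 member probe sets 1 was called higher (Rpia) and 3 were called lower (H6pd and both of Tkt) in BPD livers at a limma adjusted p under 0.05, beside 8.29% called higher and 20.3% called lower among all probe sets tested. Taking the brightest probe set of each gene, 1 of 6 genes was higher and 2 were lower, beside 8.75% and 22.2% of all genes. The 10 differences ran from -0.98 to 0.84 with a median of -0.04. Pgd holds 4 of the 10 probe sets and Tkt 2, so this median and the probe set counts weigh these genes more. By brightest probe set the differences were -0.98 for H6pd, -0.55 for Tkt, -0.44 for Taldo1 and -0.35 for Pgls. They were 0.29 for Pgd and 0.84 for Rpia, beside a median of -0.22 over all genes. Left at the deposited scaling, 5 member probe sets were called higher (Rpia and the 4 of Pgd) and 1 lower (H6pd), beside 16.7% and 9.68% of all. With quantile normalization the counts were 4 and 1, beside 12.4% and 12.0%. On centred values the BPD livers lay wholly above the GFP livers in 4 and wholly below in 3 member probe sets, beside 12.7% and 34.0% of all. On the deposited signals these counts were 5 and 2, beside 27.1% and 16.5%. Under each of these scalings at least 1 member was called in each direction.

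**Figure D1:**
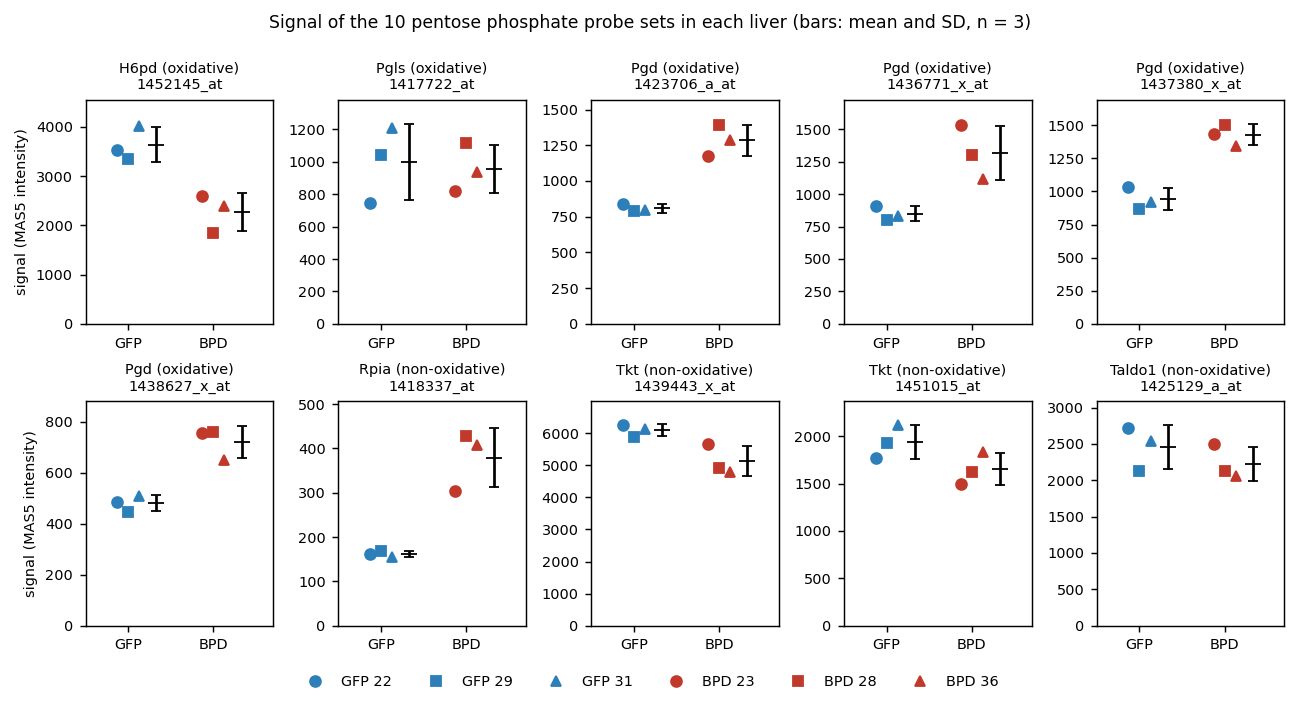
Deposited MAS5 signal (vertical axes, linear, from 0) of the 10 member probe sets in the 3 GFP (blue) and 3 BPD (red) livers, with marker shapes for single mice and black bars for mean ± SD. Rpia and the 4 Pgd probe sets lie higher in every BPD liver, H6pd lies lower, and Pgls and Taldo1 overlap.

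H6pd, the luminal hexose 6-phosphate dehydrogenase, fell. Its signal was 2601, 1849 and 2387 in BPD livers 23, 28 and 36, against 3538, 3349 and 4030 in GFP livers 22, 29 and 31. Every BPD liver lay below every GFP liver, as was so for 16.5% of all probe sets on the deposited signals, and liver 28 was the lowest. The means were 2279 ± 387 and 3639 ± 351 (SD, n = 3 each), a centred log2 difference of -0.98 ± 0.20 (SE; limma adjusted p = 0.0073) or 1.98-fold lower. The difference was -0.68 ± 0.16 with the deposited scaling (limma adjusted p = 0.015) and -0.55 ± 0.15 with quantile normalization (limma adjusted p = 0.033). Of all probe sets tested, 93.1% had a larger (less negative) difference than H6pd. Whichever mouse was left out, the difference stayed between -1.12 and -0.79 and the call was kept, with limma adjusted p from 0.0099 to 0.029.

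Pgls, which opens the ring of 6-phosphogluconolactone between the dehydrogenase steps, did not pass the test. Its signal was 820, 1113 and 935 in BPD livers and 748, 1041 and 1209 in GFP livers, in the order of mice above. The groups overlapped fully, and the lowest value was that of GFP liver 22. The centred difference was -0.35 ± 0.19 with a 95% interval from -0.78 to 0.08 (limma adjusted p = 0.20). With the deposited scaling it was -0.05 ± 0.20 and with quantile normalization -0.11 ± 0.20, neither of them called (limma adjusted p of 0.89 and 0.71). A fall of up to 0.78 after centring lies within this interval, so these arrays do not show the gene to be unchanged.

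Pgd, the 6-phosphogluconate dehydrogenase that makes ribulose 5-phosphate and the pathway's further NADPH, had higher deposited signals in BPD livers on all 4 probe sets. On its brightest probe set (1437380_x_at) they were 1433, 1502 and 1344 in BPD livers and 1031, 867 and 921 in GFP livers, with means of 1426 ± 79.2 and 940 ± 83.5 (SD, n = 3 each). The probe set 1423706_a_at read 1175, 1394 and 1289 against 841, 787 and 796, and the GFP livers were close to each other at 808 ± 29.0. For 1436771_x_at the values were 1532, 1304 and 1117 against 911, 799 and 830, and for 1438627_x_at 753, 758 and 648 against 485, 446 and 508. No deposited BPD signal reached down to a GFP signal on any of the 4, as was so for 27.1% of all probe sets. BPD liver 36 was the lowest of its group on 3 of them. After centring 1436771_x_at overlapped, with BPD liver 36 at 0.14 and GFP liver 22 at 0.19 relative to the GFP mean.

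Whether Pgd was called depended on the scaling. In the deposited scaling the 4 probe sets differed by 0.57 to 0.66, and all were called (limma adjusted p from 0.0083 to 0.020). With quantile normalization the differences were 0.43 to 0.61, and 3 were called. The other, 1438627_x_at, had a limma adjusted p of 0.054. After centring they were 0.27 to 0.36 and none of the 4 was called with limma, whose adjusted p ran from 0.11 to 0.24. Of the 4, 1423706_a_at had an unadjusted p under 0.05 (0.046). Relative to the median of the probe sets above the filter, Pgd lay 0.47 to 0.56 higher both after centring and with the deposited scaling. With quantile normalization it lay 0.48 to 0.67 higher. After centring, 15.6% to 19.0% of all probe sets had a larger difference. The 3 probe sets with the suffix _x_at can match several transcripts and are not independent readings of Pgd.

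Rpia, the isomerase that turns ribulose 5-phosphate into ribose 5-phosphate, was the member that rose under each scaling. Its signal was 303, 427 and 407 in BPD livers against 161, 168 and 154 in GFP livers. The BPD livers lay far above the GFP livers, which were nearly equal, and liver 23 was the lowest of the BPD group. Of all probe sets 27.1% lay wholly above on the deposited signals. The means were 379 ± 66.3 and 161 ± 7.03 (SD, n = 3 each), a centred log2 difference of 0.84 ± 0.17 (limma adjusted p = 0.0066) or 1.79-fold. The difference was 1.14 ± 0.17 in the deposited scaling (limma adjusted p = 0.0031), and 0.88 ± 0.17 after quantile normalization (limma adjusted p = 0.0087). Of all probe sets tested 6.78% rose more. With each mouse left out in turn the difference was 0.76 to 0.96 and the call was kept (limma adjusted p from 0.0088 to 0.036). The added constant lowers the measured fold of this probe set somewhat, given its low signal in GFP livers.

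Tkt, the transketolase that moves carbon pairs between sugar phosphates, gave lower values after centring, but this was not called under the other scalings. The brighter probe set (1439443_x_at) read 5672, 4930 and 4805 in BPD livers and 6249, 5892 and 6135 in GFP livers. The other (1451015_at) read 1500, 1621 and 1839 against 1769, 1932 and 2120, so that its signals overlapped between BPD liver 36 and GFP liver 22. The centred differences were -0.55 ± 0.15 and -0.53 ± 0.16, both called (limma adjusted p of 0.026 and 0.037). With the deposited scaling they were -0.25 ± 0.11 and -0.23 ± 0.14 (limma adjusted p of 0.13 and 0.25). With quantile normalization they were -0.02 ± 0.10 and -0.18 ± 0.13 (limma adjusted p of 0.92 and 0.34).

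Single mice also decided the call of Tkt after centring. For 1439443_x_at it was lost without BPD mouse 28 or 36 or GFP mouse 22 or 31, with limma adjusted p from 0.052 to 0.098. For 1451015_at it was lost without BPD mouse 23 or 28 or any of the GFP mice, with limma adjusted p from 0.056 to 0.13. With a mouse left out the differences themselves stayed between -0.65 and -0.46. Relative to the median of the probe sets above the filter the centred differences were -0.34 and -0.33, and 77.8% and 76.5% of all had a larger difference.

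Taldo1, the transaldolase that works beside transketolase, did not pass. Its signal was 2498, 2128 and 2058 in BPD livers and 2719, 2128 and 2539 in GFP livers, and the groups overlapped through GFP liver 29. The centred difference was -0.44 ± 0.19 with a 95% interval from -0.87 to -0.02 (limma adjusted p = 0.11, unadjusted p = 0.044). With the deposited scaling it was -0.14 ± 0.14 and with quantile normalization -0.01 ± 0.14 (limma adjusted p of 0.50 and 0.95). The centred values of the brighter Tkt probe set (1439443_x_at) and Taldo1 lay close together in each BPD liver. Relative to their GFP means they were -0.34 and -0.21 in liver 23, -0.71 and -0.61 in liver 28 and -0.60 and -0.51 in liver 36. The other Tkt probe set (1451015_at) was at -0.60, -0.66 and -0.33 in these livers, further from Taldo1 in livers 23 and 36.

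**Figure D2:**
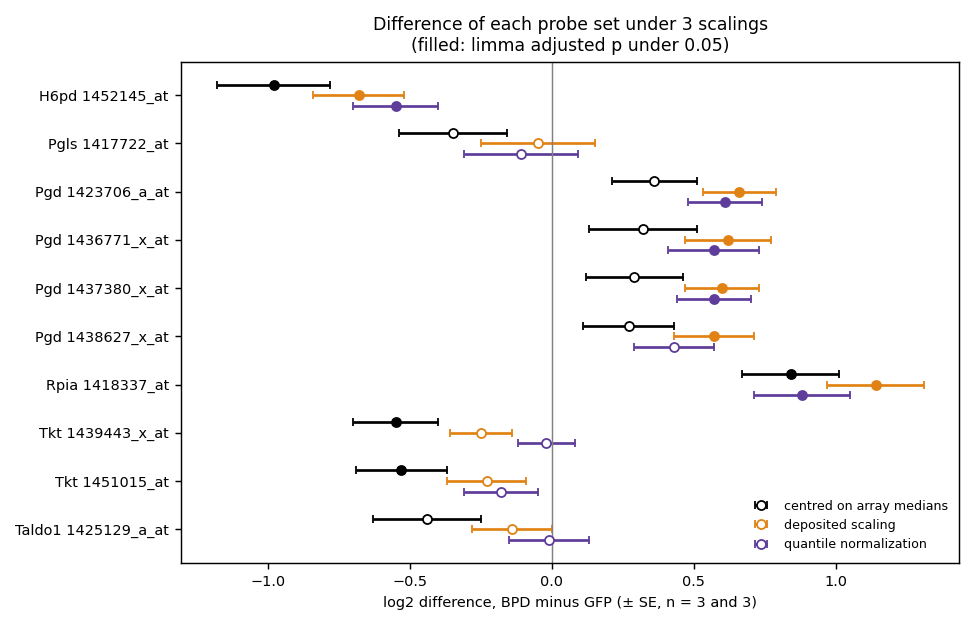
Log2 difference (BPD minus GFP, horizontal axis) ± SE of the 10 member probe sets after centring (black), with the deposited scaling (orange) and with quantile normalization (violet), filled where the limma adjusted p is under 0.05. H6pd (-0.98 to -0.55) and Rpia (0.84 to 1.14) are filled in each of the 3 scalings, whereas outside the centring the Tkt symbols are empty and the Pgd symbols are filled, except 1438627_x_at with quantile normalization.

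The branches were compared through the brightest probe set of each gene, as the mean centred log2 value per liver relative to the GFP mean. The 3 measured oxidative genes averaged -0.28, -0.44 and -0.31 in BPD livers 23, 28 and 36, and -0.01, -0.15 and 0.16 in GFP livers 22, 29 and 31. The 3 non-oxidative genes averaged 0.02, -0.13 and -0.04 in BPD livers, and 0.15, -0.17 and 0.02 in GFP livers. After centring the oxidative mean of each BPD liver thus lay below every GFP liver, and the non-oxidative means overlapped. Of single probe sets 34.0% lay wholly below after centring, and 27.1% wholly above on the deposited signals. A mean of 3 genes is another quantity, for which no such share was computed. In the deposited scaling the oxidative means overlapped, at -0.04, -0.04 and -0.05 in BPD livers against -0.09, -0.05 and 0.14, and the non-oxidative means lay higher, at 0.26, 0.27 and 0.22 against 0.06, -0.06 and 0.00. After quantile normalization the oxidative means overlapped as well (-0.04 to -0.01 in BPD and -0.10 to 0.13 in GFP livers), and the non-oxidative means lay higher (0.25 to 0.33 against -0.08 to 0.07). The gap between the branches, in which the scale of an array cancels, was -0.30, -0.31 and -0.27 in BPD livers and -0.16, 0.02 and 0.14 in GFP livers, a difference of -0.30 (SD 0.02 in BPD and 0.15 in GFP livers, n = 3 each). No test was made of this gap, since it is a score over chosen genes, and G6pdx is missing from it.

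The negative difference in this gap was lost without H6pd or without Rpia, and leaving out any other gene was not run. Without H6pd the difference between groups was 0.02, and without Rpia it was 0.15, the latter choice made after the values were seen. After centring the genes within each branch went apart. In every BPD liver Pgd lay above its GFP mean, and H6pd and Pgls lay below theirs. Rpia likewise lay above its GFP mean in every BPD liver, and Tkt and Taldo1 lay below theirs. On the deposited signals Taldo1 in BPD liver 23 (2498) lay above its GFP mean (2462). With quantile normalization Tkt (1439443_x_at) and Taldo1 differed by -0.02 and -0.01.

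Ratios within a liver remove the array's scale. The pairs given here were chosen after the values were seen, from genes that had gone apart, so their separation restates that choice and was not tested. The log2 ratio of Rpia to Tkt, relative to its GFP mean, was 0.95, 1.63 and 1.60 in BPD livers 23, 28 and 36, against -0.04, 0.10 and -0.07 in GFP livers. That of Pgd to H6pd was 1.08, 1.64 and 1.11, against 0.17, 0.00 and -0.18. That of Pgd to Tkt was 0.71, 0.97 and 0.85, against 0.10, -0.06 and -0.04. They give the size of the unequal change in each liver and not which of the pair moved.

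**Figure D3:**
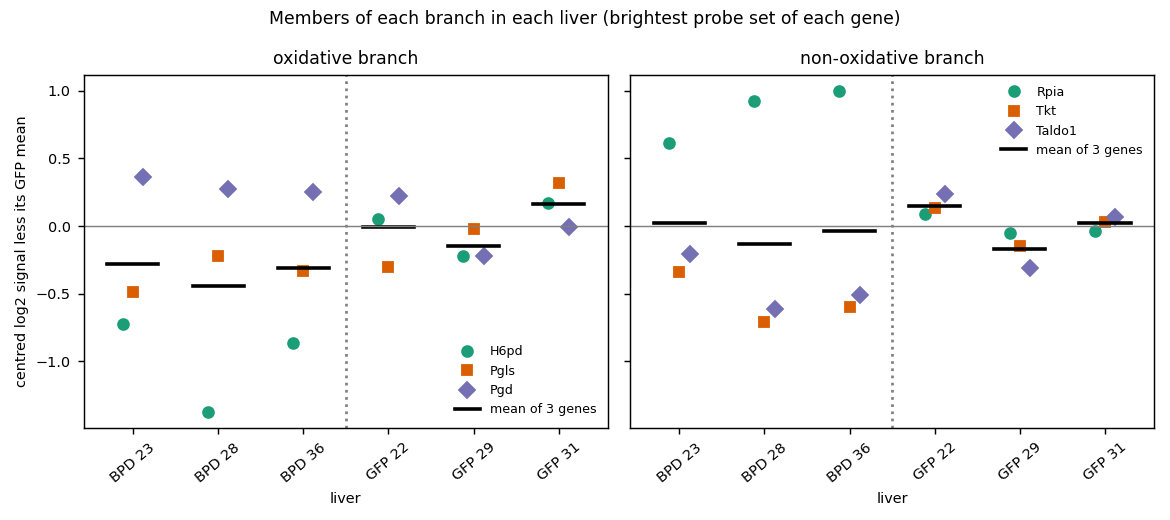
Centred log2 signal of the brightest probe set of each gene relative to its GFP mean (vertical axis) in the 6 livers (horizontal axis), for the oxidative (left) and non-oxidative (right) members, with black lines for the mean of the 3 genes. In the BPD livers Pgd and H6pd stand apart on the left and Rpia stands apart from Tkt and Taldo1 on the right, while the branch means lie between -0.44 and 0.02 after this centring.

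The genes whose profile over the 6 arrays lay nearest to a member were sought among 8025 other genes by the root mean square of the differences between profiles. Nearest to Pgd were Usp25 (0.0489), Nap1l4 (0.0509) and Ap1s1 (0.0553), where the median gene lay at 0.382. For Tkt they were Tmem259 (0.0312), Copz1 (0.0352) and Hmgxb4 (0.0393), and for Taldo1 they were Uxt (0.0325), Aars (0.0326) and Fbxw4 (0.0342), with medians of 0.315 and 0.323. These are descriptions over 6 arrays that share 2 groups. None of the genes named here belongs to the lists of neighbouring genes described next.

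Other enzymes that handle pentoses and their phosphates were mostly lower or did not pass. Of 14 listed, 12 were named here, 10 passed the filter, 5 fell, 0 rose and 5 did not pass by limma, beside 22.2% of all genes lower and 8.75% higher. The median difference was -0.54 beside -0.22 over all genes. Xylb, a xylulokinase, fell by 1.06 ± 0.21 on the centred log2 scale (limma adjusted p = 0.0068). Dera, which cleaves deoxyribose 5-phosphate, fell by 0.98 ± 0.19 (limma adjusted p = 0.0053), from signals of 1521, 1329 and 1543 in GFP livers to 796, 877 and 1070 in BPD livers. Rbks, the ribokinase, fell by 0.79 ± 0.18, Prps1, which makes the activated ribose of nucleotide synthesis, by 0.78 ± 0.19, and the gluconokinase Idnk by 0.89 ± 0.22. Rpe, the epimerase that competes with Rpia for ribulose 5-phosphate, had a difference of -0.29 ± 0.19 (limma adjusted p = 0.27), and Pgm2, a phosphopentomutase, of 0.45 ± 0.20 (limma adjusted p = 0.12). The call of Prps1 was made under neither other scaling. In the deposited scaling 2 fell (Dera and Xylb) and 1 rose (Pgm2), and with quantile normalization 4 fell and 0 rose. The calls of Rbks and Idnk were lost without BPD mouse 28 and GFP mouse 22 respectively. The testis copy G6pd2 and the transketolase-like Tktl1 were too dim for the filter.

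Most measured enzymes that make NADPH outside the pathway fell. Of 8 listed 6 were measured, of which 4 fell, 0 rose and 2 did not pass by limma (22.2% and 8.75% of all genes fell and rose), with a median of -1.10. Aldh1l1, which oxidises formyl-folate, had the largest fall of this list, by 1.95 ± 0.21 (limma adjusted p = 6.1e-04). Its signal was 4433, 3900 and 5852 in BPD livers against 12628, 13538 and 18253 in GFP livers, so the groups lay far apart. Of all probe sets 16.5% lay wholly below on the deposited signals. Malic enzyme (Me1) fell by 1.38 ± 0.29, the folate enzyme Mthfd1 by 1.13 ± 0.19 and the cytosolic isocitrate dehydrogenase Idh1 by 1.06 ± 0.19. The mitochondrial enzymes Idh2 (0.33 ± 0.17, limma adjusted p = 0.16) and Nnt (-0.38 ± 0.17, limma adjusted p = 0.12) did not pass. With quantile normalization only Aldh1l1 and Mthfd1 of this list fell, and Idh2 rose there (0.70) and in the deposited scaling (0.64).

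Enzymes that use NADPH moved both ways. Of 16 listed 13 were measured, of which 5 rose, 5 fell and 3 did not pass, beside 8.75% of all genes higher and 22.2% lower, with a median of 0.05. The ribonucleotide reductase subunits Rrm1 and Rrm2, which draw on NADPH through thioredoxin and glutaredoxin to make deoxyribonucleotides, rose by 1.84 ± 0.19 and 1.68 ± 0.18 (limma adjusted p of 5.3e-04 and 5.6e-04). For Rrm2 the signals were 1416, 1467 and 1421 in BPD livers against 398, 391 and 277 in GFP livers. Cyba and Cybb, the membrane subunits of the phagocyte oxidase, and the carbonyl reductase Cbr1 were the other risers, by 2.06, 0.94 and 1.03. The call of Cybb was lost without BPD mouse 23 or 28 or GFP mouse 22 or 31, without the filter and with the covariate for RNA integrity. Under both other scalings the list had 6 risen and 4 fallen genes. Fatty acid synthase (Fasn) fell by 2.02 ± 0.23 (limma adjusted p = 7.4e-04). The thioredoxin reductase Txnrd2 fell by 1.22 ± 0.27 (limma adjusted p = 0.0093), and was also called lower under both other scalings. Dhcr7 fell by 1.03 ± 0.19 and Blvrb by 0.71 ± 0.16, Blvrb only after centring, and the last faller, Hsd11b1, is given below. The glutathione reductase Gsr (-0.06 ± 0.19, limma adjusted p = 0.82) and the thioredoxin reductase Txnrd1 (0.05 ± 0.15, limma adjusted p = 0.83) did not pass. Nqo1 did not pass after centring either (0.45 ± 0.15, limma adjusted p = 0.052). It was called higher with the deposited scaling (0.76, limma adjusted p = 0.011) and with quantile normalization (0.50, limma adjusted p = 0.038).

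Of the luminal genes listed beside H6pd, Slc37a4 and Hsd11b1 fell, and G6pc and G6pc3 did not pass. The glucose 6-phosphatase G6pc3 differed by 0.10 ± 0.26 (limma adjusted p = 0.79). Slc37a4, which carries glucose 6-phosphate into the endoplasmic reticulum, fell by 1.79 ± 0.22 (limma adjusted p = 9.5e-04). Its signal was 1306, 1298 and 1930 in BPD livers against 4887, 3747 and 4068 in GFP livers. Hsd11b1, the user of luminal NADPH, fell by 2.52 ± 0.33 (limma adjusted p = 0.0011), with signals of 2234, 1773 and 4767 against 13494, 12799 and 11133. Both lay wholly below the GFP livers, as did 34.0% of all probe sets after centring and 16.5% on the deposited signals. Both were also called under the other scalings. G6pc, the luminal glucose 6-phosphatase, differed by -0.63 ± 0.23 and did not pass (limma adjusted p = 0.062). It was called lower without BPD mouse 23.

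Among the enzymes that feed or drain glucose 6-phosphate in the cytosol, hexokinase 1 (Hk1) rose by 0.97 ± 0.15 (limma adjusted p = 0.0023), from 144, 168 and 144 in GFP livers to 399, 423 and 353 in BPD livers. Hk2 (0.59 ± 0.24, limma adjusted p = 0.093) did not pass, except with the deposited scaling or without GFP mouse 29. The phosphoglucomutase Pgm1 fell by 0.97 ± 0.19 (limma adjusted p = 0.0066). Of the 10 genes in this list with the luminal partners, 7 were measured, 1 rose, 3 fell and 3 did not pass, with a median of -0.63. Among all genes 8.75% were called higher and 22.2% lower.

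**Figure D4:**
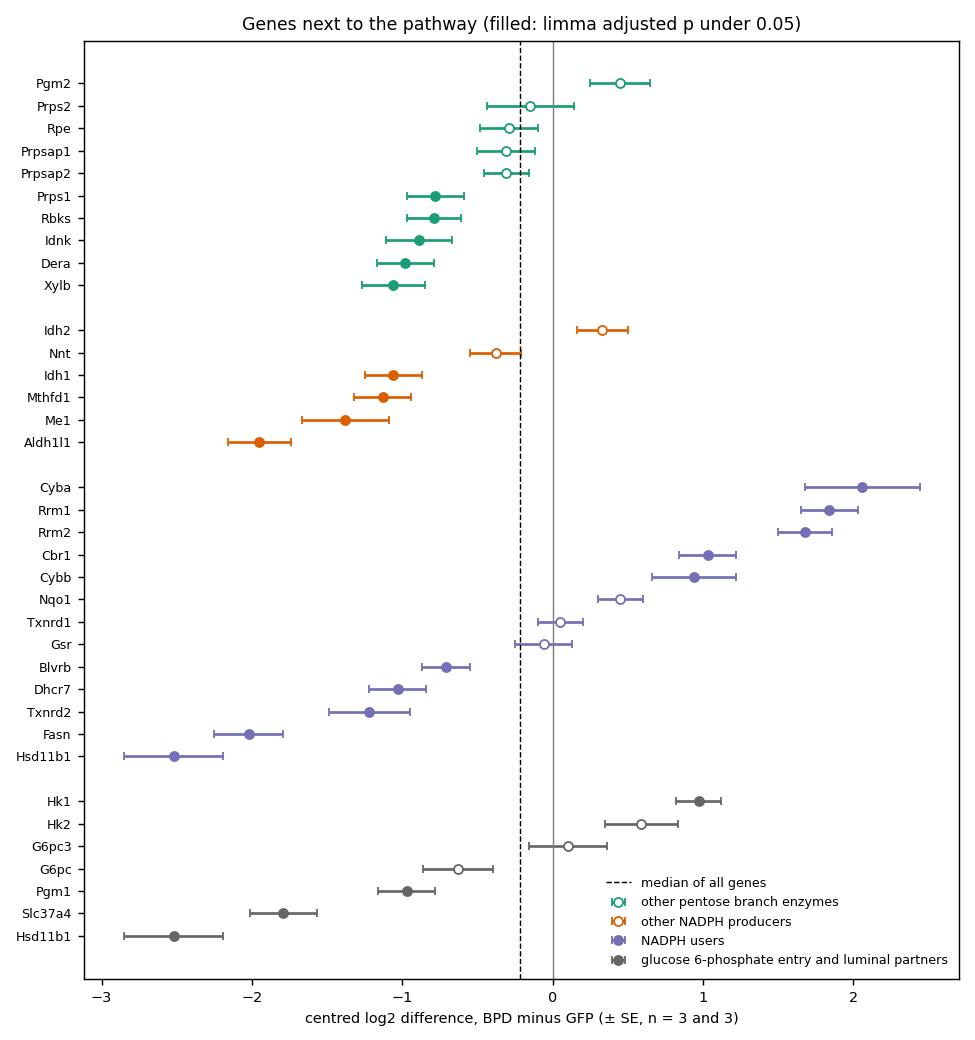
Centred log2 difference (BPD minus GFP, horizontal axis) ± SE of the measured genes in the 4 neighbouring lists, filled where the limma adjusted p is under 0.05. The dashed line marks the median of all genes at -0.22, and the 4 fallen NADPH producers and the luminal genes Slc37a4 and Hsd11b1 lie left of it, while Rrm1, Rrm2 and Hk1 lie right of it.

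In whole liver RNA, fewer cells of a type and less RNA per cell cannot be told apart, and markers of several cell types moved with the groups. The counts of called markers stand beside 8.75% of all genes called higher and 22.2% called lower after centring. All 8 measured markers of dividing cells rose, and the sum of their signals was 7804 to 10350 in BPD livers against 1221 to 1839 in GFP livers. Of 14 measured macrophage markers 10 rose and 0 fell, with sums of 23721 to 47805 against 5890 to 19642. Of 5 neutrophil markers 4 rose and 0 fell (1757 to 8184 against 452 to 721), and of 7 stellate and matrix markers 3 rose and 0 fell (3631 to 13457 against 1373 to 1963). The sums, unlike the counts, also hold markers too dim for the filter, Marco for macrophages and Camp and Elane for neutrophils. All 9 measured hepatocyte markers fell after centring, with sums of 95591 to 107498 against 143016 to 149717 and a median difference of -0.80. In the deposited scaling 5 of them fell and after quantile normalization 3, beside 9.68% and 12.0% of all probe sets. The fall of H6pd and the rise of Rpia accompanied these shifts, as did the higher deposited signals of Pgd, and the part of cell composition in them was not tested. Of the cholangiocyte markers Krt19, Krt7, Epcam and Sox9 and the fat cell markers Adipoq and Lep, none passed the filter on dim signals. Of the other measured markers, 1 of 2 T and NK cell, 2 of 3 erythroid and 1 of 4 endothelial markers rose, 1 erythroid and 1 endothelial marker fell, and 0 of 1 B cell and 0 of 2 pancreas markers were called by limma.

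The ratio of 3′ to 5′ signal of the Gapdh control probe sets, a measure of RNA integrity, was 0.735 to 0.863 on BPD arrays and 0.785 to 0.900 on GFP arrays, so the groups overlapped. The same ratio for actin was 1.75, 1.23 and 1.26 on BPD arrays 23, 28 and 36. On GFP arrays 22, 29 and 31 it was 1.56, 1.40 and 1.59, and it was not used as a covariate. With the Gapdh ratio as a covariate H6pd and Rpia kept their calls, while both Tkt probe sets lost theirs (limma adjusted p of 0.076 and 0.087). Their differences were -0.48 and -0.51, against -0.55 and -0.53 without the covariate.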

How the data were processed

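Per the submitters' processing notes the deposited values are signal intensities made with MAS5 (version, target value and filters not given in the sources used here). These intensities are linear, 1 array per mouse. From 22690 probe sets 64 controls were left out. The platform annotation gives 20380 of the other 22626 probe sets 1 gene symbol, 691 several (named as no gene) and 1555 none here.

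Values became log2(signal + 16.33), the constant being 10% of the median of all values (163). Array medians differed 1.46-fold, past the limit of 25%, so arrays were centred on their medians. Probe sets above the 40th percentile of mean log2 value, blind to group, were kept (13575). BPD and GFP were compared with limma 3.58.1 in R 4.3.3 (eBayes with trend, 4 residual and 5.44 prior degrees of freedom, 2-sided), with Benjamini-Hochberg adjustment over all kept probe sets and a threshold of 0.05. The code was tested on simulated data. The number of arrays limits the precision. List genes were represented by their brightest kept probe set. Members, lists and motifs were chosen with earlier results of these data known. From each list the text names up to 4 called genes with the smallest p and up to 2 others. Idnk, Cyba, Cybb, Cbr1, Txnrd2, Dhcr7, Blvrb, Nqo1 and G6pc3 were named after their values were seen. Promoter sequences are RefSeq's (GRCm38.p6), and all 7 members matched by symbol.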

Additional observations from a re-analysis of the deposited data

How the results depend on the processing

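H6pd stayed called lower and Rpia called higher in all 14 alternatives run on each. These were the 2 other scalings, 2 other added constants, no filter, no intensity trend, no probe sets with the suffix _x_at or _s_at, the Gapdh ratio as a covariate and each of 6 mice left out. Pgls and Taldo1 were called in none of their 14. No member probe set changed direction in any alternative. The number of member probe sets called higher was 5 with the deposited scaling, 4 with quantile normalization and 1 with any mouse left out. The number called lower was 1 with the deposited scaling, with quantile normalization and with the Gapdh covariate, and 1 to 2 with a mouse left out (1 without BPD mouse 28 and without either GFP mouse 22 or 31). The difference in branch gap was 0.02 without H6pd and 0.15 without Rpia, and -0.37 to -0.23 with a mouse left out. Centring subtracts a single value from each array, so against the deposited scaling it shifted the differences of all probe sets equally. Relative to the median of the probe sets above the filter, the differences of Tkt (-0.34 and -0.33) and Pgd (0.47 to 0.56) were the same in both. The SE also differed between scalings, and what else changed the calls of Tkt and Pgd was not tested. With 3 arrays a group, differences of the size seen for Pgls and Taldo1 did not pass the test.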
